A study of Rattus norvegicus with 4 samples.

Results

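Tubulins, neurofilaments and stathmins are the building blocks and regulators of the neuronal cytoskeleton. They were followed here through 10 genes, the tubulins Tuba1a, Tuba4a, Tubb2a, Tubb2b and Tubb3, the neurofilament subunits Nefl, Nefm and Nefh, and the stathmins Stmn1 and Stmn2. A probe set was taken as a member when the platform annotation gave it exactly 1 gene symbol and that symbol was one of the 10. This held for 12 probe sets, of 20826 with 1 annotated gene and 31042 in all, and 11 of the 12 were bright enough to be tested. RNA came from hippocampi of male Wistar rats aged 16 months. Stressed rats had gone through the chronic unpredictable mild stress battery, a changing series of mild stressors used as a model of depression, for 4 weeks from an age of 15 months. Nonstressed controls of the same age were kept in standard housing with free food and water. Each group gave 2 arrays, which the labels call biological replicates, and each array carried the pooled RNA of 3 rats. The sources used here do not write out that no rat entered more than 1 pool, so each p measures the spread between pools, which may be technical in part.

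Microtubules are hollow polymers of alpha- and beta-tubulin that carry transport along axons and dendrites, and neurons use several isotypes of each. Neurofilaments are intermediate filaments built from the light, medium and heavy subunits together with alpha-internexin, and they set the calibre of large axons. Stathmins bind free tubulin dimers and favour microtubule shortening. Stmn1 is found in many cells, whereas Stmn2 is a membrane-bound protein of neurons known for its role in growing and regenerating axons.

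The values were signal intensities of Affymetrix arrays on a linear scale, scaled by the authors to the same trimmed mean on each array. A probe set was tested when its signal reached 100 on at least 2 of the 4 arrays, which 14791 did. The log2 signals of the groups were tested with limma, and p was adjusted over all tested probe sets by the method of Benjamini and Hochberg. In what follows, a log2 difference is stressed minus control, and a probe set rose or fell when its adjusted p was under 0.05. Signals of different probe sets depend on their probes and are not compared as levels. In whole hippocampus, fewer neurons and less RNA per neuron cannot be told apart.

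The 11 tested member probe sets differed little between stressed rats and nonstressed controls. One neurofilament subunit, Nefm, rose, 1 of 2 probe sets of Stmn2 fell, and the other 9 tested probe sets did not pass the test. Of all tested probe sets 12.0% rose and 11.8% fell, so 1 rise and 1 fall among 11 lay near these shares. The study's own thresholds were a 2-fold difference and an unadjusted p below 0.05. No member probe set reached both, by limma or by the test that the methods name, while by limma 1.60% of all tested probe sets did. At unadjusted p under 0.05 alone, limma gave 3 member probe sets as higher and 1 as lower, where 20.4% and 17.6% of all tested probe sets were. The median log2 difference of the 11 was 0.03, beside 0.02 over all tested probe sets. It was -0.03 without stressed replicate 1, -0.02 without control replicate 1, 0.08 without stressed replicate 2 and 0.09 without control replicate 2. The median size of the difference was 0.11 beside 0.15, and the range ran from -0.28 to 0.29. The 95% intervals of the 9 that did not pass lay between 0.882-fold and 1.26-fold, which leaves room for small changes in either direction. Both arrays of stressed rats lay above both controls for 4 member probe sets and below them for 3, while 34.9% and 29.5% of all tested probe sets were separated in this way.

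**Figure D1:**
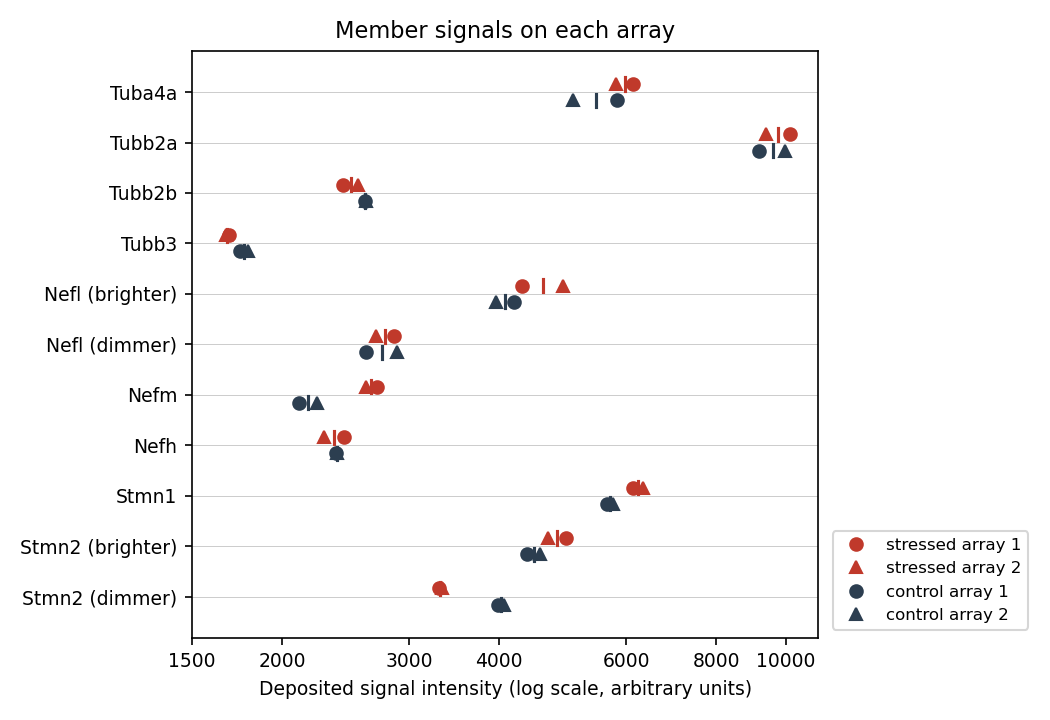
Deposited signal intensity (log scale, arbitrary units) of the 11 tested member probe sets on the 4 arrays, with red for stressed rats, dark blue for nonstressed controls, a symbol for each array and a short bar at each group's mean. The groups are clearly apart for Nefm and the dimmer probe set of Stmn2, and overlap for Tuba4a, Tubb2a, Nefh and the dimmer probe set of Nefl.

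Among the neurofilaments only the medium subunit rose. Nefm, measured by probe set 1367845_at, had signals of 2705.6 and 2616.1 in stressed rats and 2111.0 and 2236.8 in nonstressed controls. Both stressed arrays were above both controls, and the gap between the groups was wider than the gap within either. The mean signals were 2661 ± 63.3 (SD, n = 2 arrays) and 2174 ± 89.0, a rise of 1.22-fold. The log2 difference was 0.29 (standard error 0.05, 95% interval 0.18 to 0.41, adjusted p = 0.00534 from limma). A difference of larger size was found for 23.7% of all tested probe sets. In each removal of a single array the log2 difference stayed at 0.25 to 0.33. The call was lost without an intensity trend in the moderation (adjusted p = 0.0531). It was also lost by the test that the methods name (adjusted p = 0.164, unadjusted p = 0.0263).

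The light subunit, encoded by Nefl, was measured by 2 probe sets, and neither passed the test. The brighter one, 1370059_at, had signals of 4308.7 and 4903.7 in stressed rats and 4194.5 and 3958.3 in controls. These did not overlap, but the stressed arrays differed from each other by more than the lower of them differed from the higher control. The log2 difference was 0.17 (95% interval 0.02 to 0.33, unadjusted p = 0.0316 and adjusted p = 0.0964 from limma). Without stressed replicate 1 the difference was 0.27 and was called (adjusted p = 0.0285). The dimmer one, 1370058_at, had signals of 2857.2 and 2696.7 in stressed rats and 2615.2 and 2887.4 in controls. Here the groups overlapped fully, with a log2 difference of 0.01 (95% interval -0.12 to 0.15, adjusted p = 0.88 from limma).

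The heavy subunit, whose tail is heavily phosphorylated in mature axons, showed no detectable difference. Nefh, measured by 1370815_at, had signals of 2434.3 and 2288.7 in stressed rats and 2376.8 and 2387.0 in controls. Both controls lay between the stressed arrays. The log2 difference was -0.01 (95% interval -0.12 to 0.10, adjusted p = 0.866 from limma).

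Nefm was also set against its partners as ratios within each array, as a description, since Nefm was taken up after its rise was known. The log2 ratio of Nefm to Nefh was 0.15 and 0.19 in stressed rats and -0.17 and -0.09 in controls, a difference of 0.31 with no overlap. Against the dimmer probe set of Nefl the difference was 0.28, also with no overlap, and against the brighter one it was 0.12, with overlap. Exact two-sided permutation over the arrays gave p = 0.333, 0.333 and 0.667. As 0.333 is the smallest p that 2 arrays against 2 can give, this test could not decide whether these transcripts changed unequally. Nefl and Nefm are neighbouring genes in the RefSeq annotation of GRCr8, and Nefh lies elsewhere.

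The stathmins divided by probe set. Stmn1, measured by 1386857_at, had signals of 6138.0 and 6326.0 in stressed rats and 5650.6 and 5761.3 in controls. Both stressed arrays were higher, by little. The log2 difference was 0.13 (95% interval 0.03 to 0.23, unadjusted p = 0.0203 and adjusted p = 0.0712 from limma) and did not pass the test. After quantile normalization it was 0.11 and passed (adjusted p = 0.043).

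The 2 probe sets of Stmn2 had differences of opposite sign. The dimmer one, 1370042_at, had signals of 3299.3 and 3330.1 in stressed rats and 3984.2 and 4060.7 in controls. All values were tight within their group, and both stressed arrays were lower. The means were 3315 ± 21.8 (SD, n = 2 arrays) and 4022 ± 54.1, a ratio of 0.824. This was a fall, with a log2 difference of -0.28 (standard error 0.04, 95% interval -0.38 to -0.18, adjusted p = 0.00358 from limma). The fall was kept in each removal of an array (highest adjusted p = 0.0397), without an intensity trend and under each normalization, but not by the test that the methods name (adjusted p = 0.0975, unadjusted p = 0.00298). A difference of larger size was found for 25.5% of all tested probe sets.

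The brighter probe set of Stmn2, 1370041_at, gave no call. Its signals were 4947.5 and 4681.8 in stressed rats and 4379.1 and 4558.8 in controls. Both stressed arrays were higher, by less than the spread within the stressed group at the nearest values. The log2 difference was 0.11 (95% interval 0.00 to 0.22, adjusted p = 0.147 from limma). Within each array, the log2 ratio of the brighter to the dimmer probe set was 0.58 and 0.49 in stressed rats and 0.14 and 0.17 in controls. The ratio thus differed by 0.39 with no overlap (exact two-sided permutation p = 0.333, the smallest possible). This separation was bound to follow, since on both stressed arrays the brighter probe set was higher and the dimmer one lower. Stmn1 against the dimmer probe set of Stmn2 differed by 0.41 (exact p = 0.333) and against the brighter one by 0.02, with overlap (exact p = 1.0). The ratio of Stmn1 to the dimmer probe set was bound to separate too, as Stmn1 was higher on both stressed arrays. Altogether 7 such ratios were compared, and none could pass a threshold of 0.05 in this design. The part of the transcript that each probe set reads was not analysed here, so a change of Stmn2 as a gene cannot be given a direction.

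**Figure D2:**
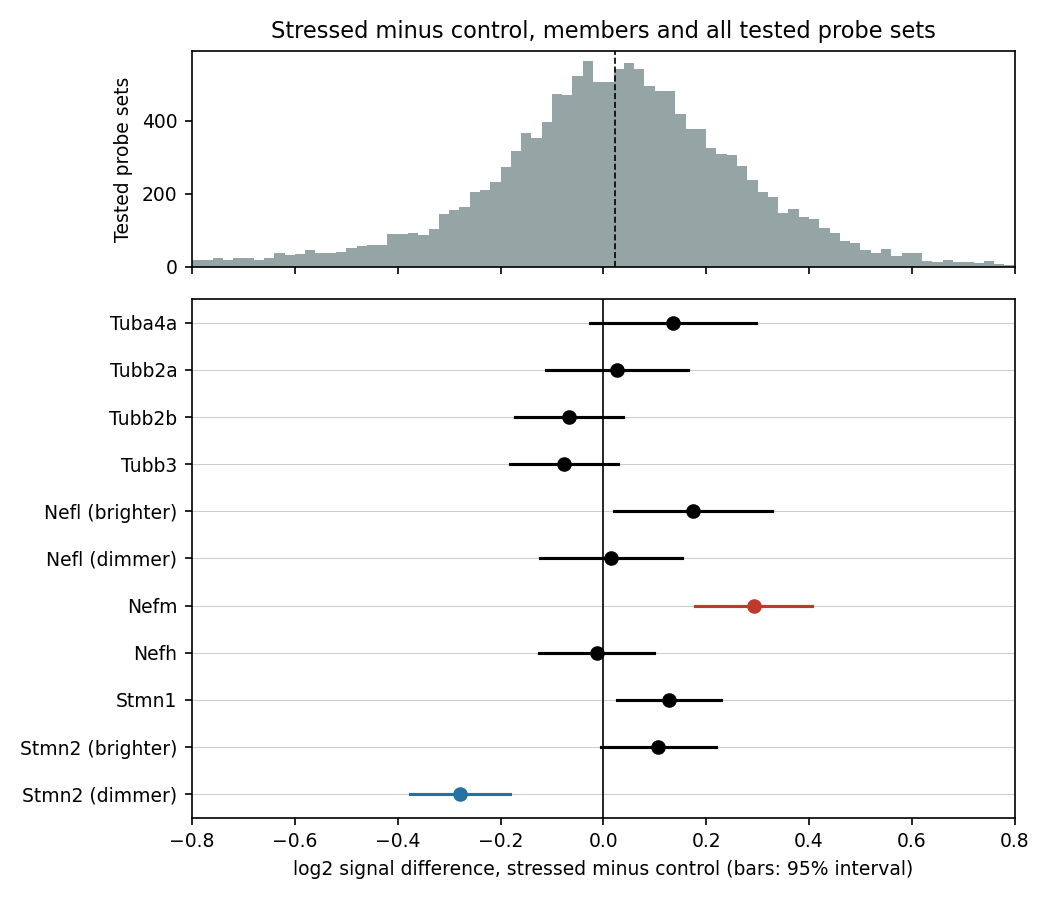
Upper panel, number of tested probe sets by log2 signal difference, stressed minus control, in bins between -0.8 and 0.8, with the median as a dashed line (428 probe sets lie outside). Lower panel, log2 difference of each member probe set with its 95% interval from limma, in red where it rose, in blue where it fell and in black where it did not pass. Nefm and the dimmer probe set of Stmn2 stand on opposite sides, and all 11 lie within the bulk of the tested probe sets.

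The tubulins gave no call at all. Of the 4 member tubulins that were tested, none rose or fell by limma at adjusted p under 0.05, and none passed at unadjusted p under 0.05, by limma or by the test that the methods name. Tubb3, the beta-tubulin isotype used as a marker of neurons, was read by 1371618_s_at, with signals of 1688.3 and 1671.8 in stressed rats and 1747.1 and 1795.1 in controls. Both stressed arrays were lower, by a log2 difference of -0.08 (95% interval -0.18 to 0.03, adjusted p = 0.261 from limma). The suffix of this probe set marks, in the naming of the manufacturer, probes that match more than 1 related transcript. The other probe set of Tubb3, 1369901_at, had signals of 9.6 and 23.9 in stressed rats and 22.1 and 4.7 in controls. It lay far below the minimum of 100 on every array and was the only member probe set not tested.

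The other beta-tubulin members are the closely related isotypes Tubb2a and Tubb2b, both abundant in brain. Tubb2b, measured by 1388131_at, had signals of 2432.4 and 2550.8 in stressed rats and 2604.9 and 2613.0 in controls. The stressed arrays were lower without overlap, but the gap was smaller than the spread between them, and the log2 difference of -0.07 did not pass the test (95% interval -0.17 to 0.04, adjusted p = 0.325 from limma). Tubb2a, measured by 1373718_at, had signals of 10132.5 and 9382.5 in stressed rats and 9186.5 and 9976.1 in controls. The arrays interleaved, with a log2 difference of 0.03 (95% interval -0.11 to 0.16, adjusted p = 0.779 from limma) that turned to -0.03 after quantile normalization. Such isotypes can share probe matches, and how far these probe sets separate them was not tested. In the RefSeq annotation of GRCr8 both genes border the same further member of the family, Tubb2al1.

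Alpha-tubulins were covered less well. Tuba4a, whose product carries no tyrosine at its end when newly made, was measured by 1371542_at. Its signals were 6144.9 and 5812.2 in stressed rats and 5839.0 and 5068.8 in controls. The controls differed from each other by 0.20 on the log2 scale, the widest gap within a group among the members, and the groups overlapped. The log2 difference was 0.14 (95% interval -0.03 to 0.30, adjusted p = 0.197 from limma). Tuba1a, the main alpha-tubulin of young neurons, had no probe set of its own. One probe set, 1367579_a_at, is annotated to Tuba1a together with its relatives Tuba1b and Tuba1c and was therefore no member. It had signals of 11258.5 and 10242.8 in stressed rats and 9371.6 and 10204.4 in controls, a log2 difference of 0.14 (adjusted p = 0.162 from limma) that belongs to no single gene. With the pairing of the arrays crossed, an alternative chosen after seeing the data, this difference was called (adjusted p = 0.00681).

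Related genes were taken from 6 lists, with the brightest tested probe set of each gene. The lists covered tubulins and the ring that starts microtubules, stathmins, intermediate filaments with their linkers, and tubulin folding, tubulin modification and microtubule severing. Of 85 genes listed, 58 were tested, of which 8 rose, 6 fell and 44 did not pass the test. Over all genes taken in this way, 11.1% rose and 10.2% fell. The median log2 difference of the 58 was -0.03. By the test that the methods name no adjusted p was below 0.05, and only 18 of all 14791 tested probe sets reached this. Before adjustment 8 genes passed as higher and 7 as lower, where 1870 and 1772 of the 14791 probe sets did. When stressed replicate 1 was removed 5 genes rose. With either control array removed 4 rose, and 3 fell when this was control replicate 1.

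Of 9 other genes of tubulins and of the ring that starts new microtubules, 2 rose and none fell by limma. At unadjusted p under 0.05, 3 were higher and none lower. Tubb4a, a beta-tubulin of neurons and oligodendrocytes, rose by a log2 difference of 0.33 at its brightest probe set (adjusted p = 0.0018 from limma), whose suffix marks probes that may also match other sequences. The other 2 probe sets of Tubb4a were at 0.17 (adjusted p = 0.0409), which passed and has no such suffix, and at 0.10 (adjusted p = 0.201), which has it. The other, Tubgcp3, encodes a component of the ring that starts new microtubules and had signals of 164.3 and 129.4 in stressed rats and 93.4 and 83.5 in controls. It passed the minimum of 100 only through the group where it was higher, so its log2 difference of 0.72 (adjusted p = 0.019) was bound to be positive. Leaving it out, 1 of 8 rose, and 7 of 57 over the 6 lists. The call of Tubgcp3 was lost without stressed replicate 1 (adjusted p = 0.0994), control replicate 1 (0.0633) or control replicate 2 (0.111). Without control replicate 2, 1 gene of this list fell. The relatives Stmn3 and Stmn4, named after their values were seen, had log2 differences of -0.01 (adjusted p = 0.93) and -0.08 (adjusted p = 0.282), and neither was called.

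Of 10 other genes of intermediate filaments and their linkers, 4 rose and 1 fell. The genes that rose do not encode neurofilaments. Synm, which encodes a filament protein found in astrocytes and muscle, rose by a log2 difference of 0.45 (adjusted p = 0.00216 from limma). Plec and Dst, which encode large linkers of filaments to other structures, rose by 0.46 (adjusted p = 0.00299) and 0.38 (adjusted p = 0.00109). Macf1, a linker of actin and microtubules named after its values were seen, rose by 0.25 (adjusted p = 0.0114). Vim, the filament of immature astrocytes, ependymal and vessel cells, fell from signals of 2130.7 and 2075.8 in controls to 1469.9 and 1521.9 in stressed rats, a log2 difference of -0.49 (adjusted p = 4.39e-04). The calls of Vim, Synm, Plec and Dst were kept in each removal of an array. Ina, which encodes alpha-internexin, the partner of the neurofilament triplet, was also named after its values were seen. Its brighter probe set had a log2 difference of -0.04 (adjusted p = 0.562), and the dimmer one rose by 0.31 (adjusted p = 0.0131). As for Tubb3, the suffix of the dimmer one marks probes that match more than 1 related transcript.

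Among the genes of tubulin folding 4 fell and 16 did not pass the test. Tubulin is folded by prefoldin and the chaperonin CCT and is then joined into dimers by the tubulin-specific cofactors. Of the 20, none rose by limma, and 5 were lower and none higher at unadjusted p under 0.05. Differences were negative for 18 of the 20, with a median of -0.07, most of them small, and for 47.1% of all genes tested in this way, with a median of 0.02. The prefoldin subunit genes Pfdn6, Pfdn5 and Pfdn4 fell by 0.41 (adjusted p = 0.00255 from limma), 0.32 (adjusted p = 0.00471) and 0.22 (adjusted p = 0.0358) on the log2 scale. The other tested prefoldin genes, Pfdn1 and Pfdn2, named after their values were seen, did not pass. Their log2 differences were -0.03 (adjusted p = 0.749) and -0.10 (adjusted p = 0.158). Arl2, a small GTPase that works with the cofactors, fell by 0.37 (adjusted p = 0.011). At the brightest probe set none of the tested genes of CCT or of the cofactors passed. Dimmer probe sets of Cct6a and Cct5, chosen after their values were seen, fell by 0.97 (adjusted p = 0.0155) and 0.21 (adjusted p = 0.0246). That of Cct6a was dim, with signals of 169.7 and 103.8 in stressed rats and 247.5 and 272.2 in controls. The brightest probe set of Cct6a was at -0.03 (adjusted p = 0.686). Dimmer probe sets of Cct8 and Pfdn2, chosen in the same way, did not pass, at -0.03 (adjusted p = 0.765) and -0.24 (adjusted p = 0.0545). Without control replicate 1, 2 genes of the list fell, and the call of Arl2 was lost (adjusted p = 0.0742). That of Pfdn4 was lost in each removal (adjusted p 0.082 to 0.165).

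Among 15 genes of tubulin modification, 2 rose and 1 fell. Ttl, the ligase that restores the terminal tyrosine of alpha-tubulin, rose by 0.27 (adjusted p = 0.0155 from limma), but not without stressed replicate 1 (adjusted p = 0.0553), control replicate 1 (0.0542) or control replicate 2 (0.0909). Ttll5 and Ttll7, which add glutamate chains to tubulin, had log2 differences of 0.25 (adjusted p = 0.0404) and -0.15 (adjusted p = 0.044). Both calls were lost in each removal of an array (adjusted p 0.071 to 0.19). Ttll7 had further probe sets, at 0.05 and 0.14. Both tested genes of microtubule severing, Spast and Katna1, named after their values were seen, had log2 differences of -0.18 and did not pass the test (adjusted p = 0.176 and 0.455).

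**Figure D3:**
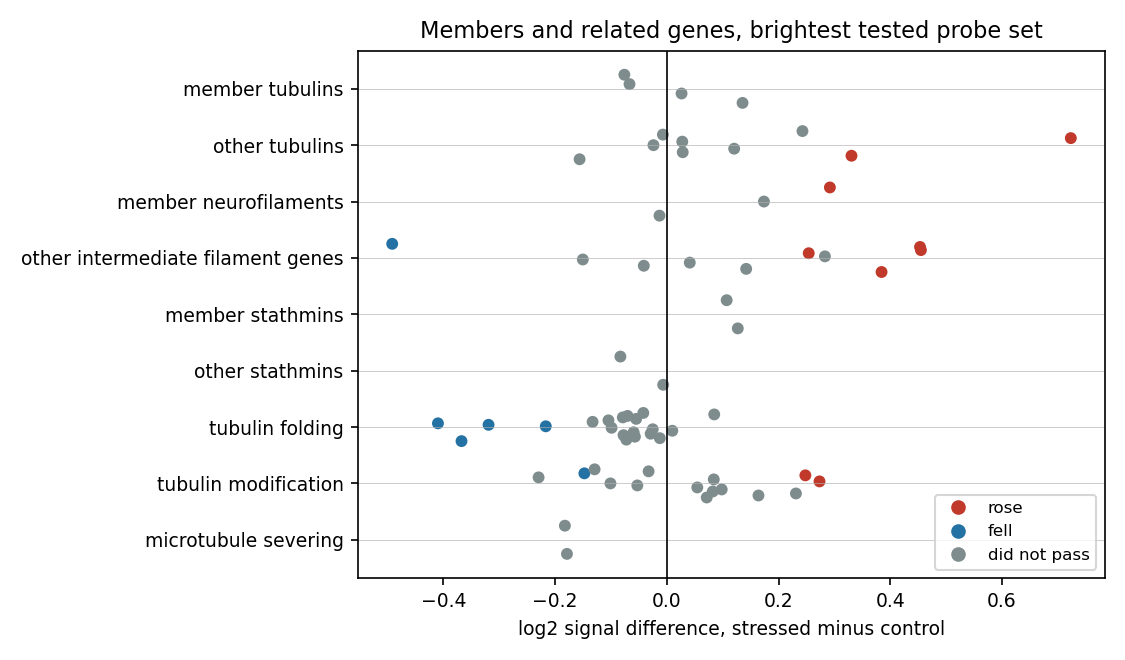
Log2 signal difference, stressed minus control, of the member genes and of the related genes in each list at the brightest tested probe set of each gene, with red for genes that rose, blue for genes that fell and grey for genes that did not pass. The genes of tubulin folding crowd just below 0 (18 of 20 negative), while member tubulins and stathmins carry no call. The list named other tubulins also holds genes of the ring that starts new microtubules.

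Control probe sets and some marker genes of several cell types also differed between the groups. The marker counts below stand beside shares of 11.1% that rose and 10.2% that fell over all genes at the brightest tested probe set. At unadjusted p under 0.05 by limma, 20.4% of all tested probe sets were higher and 17.6% lower. All 9 probe sets of the bacterial and phage hybridization controls were higher on both stressed arrays, by log2 differences of 0.15 to 0.52 with a median of 0.29, as large as the rise of Nefm. The ratio of 3′ to 5′ signal was 7.66 to 7.82 in stressed rats and 6.20 to 6.67 in controls for beta-actin, and 2.12 to 2.16 and 2.14 to 2.25 for Gapdh. The 3 control probe sets of beta-actin, itself a cytoskeletal gene, had log2 differences of -0.563, -0.830 and -0.998 from the 3′ end, the 5′ end and the middle, larger than any member difference, and those of Gapdh 0.05 to 0.09. Of 14 neuronal markers 5 rose and 3 fell, among them Syn1 at a log2 difference of 0.27 and Gap43, a gene of growing axons, at -0.28. Their summed signal was 53426 to 54257 in stressed rats and 51346 to 53253 in controls. With single arrays removed, 1 to 3 of them rose (1 without control replicate 1) and 1 fell. Of 12 markers of choroid plexus and ependyma 8 rose and 1 fell, with summed signals of 19835 to 21092 and 15392 to 17220. Cldn2 and Aqp1, named after their values were seen, passed the minimum only through the stressed arrays, where they were higher, and 6 of the other 10 rose. Of 12 endothelial and mural markers 6 rose and none fell, 6 were higher and none lower at unadjusted p under 0.05, and summed signals were 5850 to 5860 and 5035 to 5060. Among these, 4 rose without stressed replicate 2, 4 without control replicate 1 (where 1 also fell) and 2 without control replicate 2. Of the 12, 2 passed the minimum only through the stressed arrays, and 5 of the other 10 rose. Astrocyte markers rose in 3 and fell in 1 of 13 genes, oligodendrocyte markers rose in 1 and fell in 3 of 12, and microglial markers rose in 1 and fell in 2 of 8. For some of these genes a dimmer probe set was called the other way. Slc1a3 and Slc4a4 rose, each by a log2 difference of 0.37, while a dimmer probe set of each fell, at -0.43 and -0.57. Cnp fell, at -0.25, while its dimmer probe set rose, at 0.38. For Syn1 the tested probe sets rose alike, at 0.27 and 0.53. The 7 markers of immature neurons had 1 rise and 1 fall, the 9 of cortex layers 3 rises and 1 fall, and the 8 of thalamus and habenula no rise and 1 fall. Of the nerve markers on the array only Pmp22 was tested, and its brightest probe set did not pass, while a dimmer one fell, with a log2 difference of -0.85 (adjusted p = 0.00454). Of 15 hippocampal subfield markers on the array 11 passed the signal filter, of which 1 rose and 2 fell. Neurod2 and Pou3f1 fell, with log2 differences of -0.79 and -0.55. The rise was of Dsp (0.91), which passed the minimum only through the stressed arrays. Prox1 (0.10), Neurod6 (-0.10), Wfs1 (0.28, adjusted p = 0.0506 from limma) and Fibcd1 (-0.05) did not pass the test. The 5 tested probe sets of Zbtb20 disagreed, from -0.99 (adjusted p = 0.00255) to 0.32 (adjusted p = 0.0122). Differences were positive for 4 of the 11 tested subfield markers and negative for 7. Spink8 and Iyd stayed below 20. Dsp and the genes after it were named after their values were seen. The part of these differences in the results for the cytoskeletal genes was not tested.

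**Figure D4:**
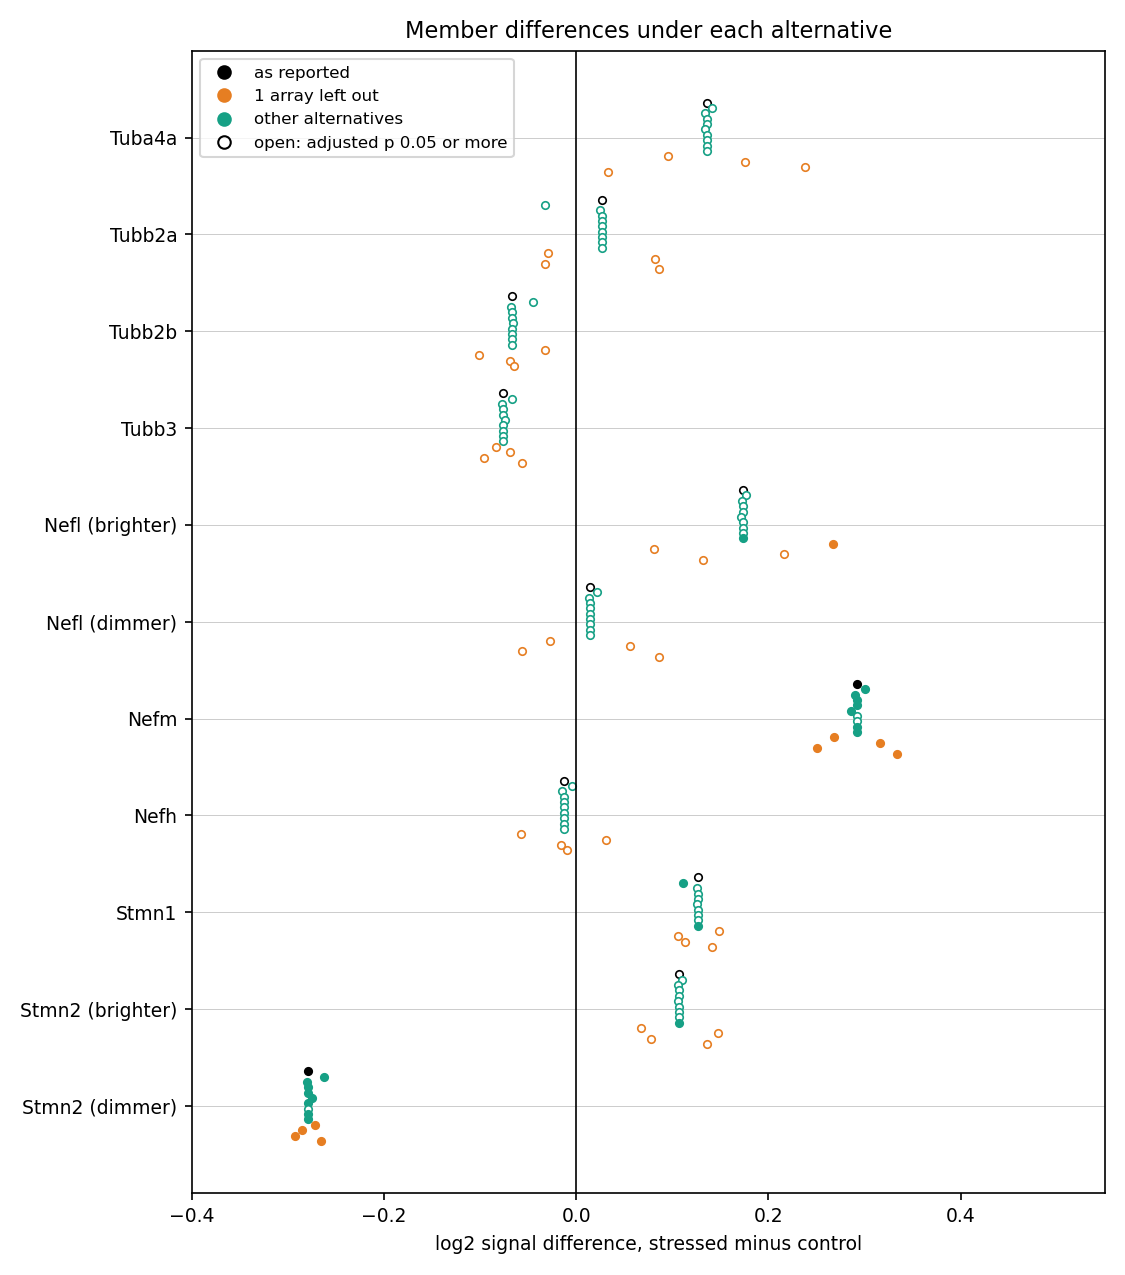
Log2 signal difference of each member probe set, stressed minus control, as reported (black), with 1 array left out (orange) and under the other alternatives (green), filled where adjusted p was under 0.05. Only the dimmer probe set of Stmn2 and Nefm are filled in most settings, and Tubb2a, Nefh and the dimmer probe set of Nefl cross 0.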

How the data were processed

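Total hippocampal RNA of stressed rats and nonstressed controls was hybridized by the authors to Affymetrix Rat Genome 230 2.0 arrays. The deposited signal intensities were made by the authors with GCOS, per the labels, and are linear. Each array had a mean of 300.0 once its highest and lowest 2% were dropped. Log2 signals were computed here with zeros set to 0.1. Detection calls were not analysed here. Median signals of 79.6 to 82.3 and 46.4% to 46.8% of probe sets at 100 or more were similar on the 4 arrays, whose number limits the precision.

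Control probe sets of the manufacturer, 57 in number, were not tested. Annotated symbols were updated through gene identifiers to RefSeq (GRCr8), used for names and neighbours only, and 9780 probe sets had no entry. Groups were compared in R 4.3.3 by limma 3.58.1, whose eBayes step used an intensity trend and whose model had no replicate block. The fit was tested on simulated data in which far fewer probe sets changed than were called here. Its pass rule for recovery covered only differences of 2-fold or more, so it does not bear on the smaller member differences. Plots were drawn with matplotlib 3.10.9 in python 3.11.15, from tables made with numpy 2.4.6 and pandas 2.3.3. The members and lists were chosen with earlier results of these data known. Named were all members and, of each list, up to 4 genes with the smallest p past adjusted p under 0.05. Of marker lists at most 2 could be named in this way. Values of these are given only for neurons, hippocampal subfields, astrocytes and, for Cnp alone, oligodendrocytes. Alternatives were no filter, a minimum signal of 200 instead of 100, 50 added to each signal, median centring, quantile normalization, no intensity trend, the test that the methods name, the replicate number as a block, a crossed block added after seeing the data, removal of each array, and averaging a gene over its probe sets. Array removals kept the tested probe sets.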

Additional observations from a re-analysis of the deposited data

How the results depend on the processing

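Of 143 values of member log2 differences under the alternatives, 129 kept their direction and side of the threshold. Rises among the 11 member probe sets numbered 2 after quantile normalization (Nefm and Stmn1), 0 without an intensity trend, 0 by the test that the methods name and 4 with a crossed replicate block (Nefm, Stmn1 and the brighter probe sets of Nefl and Stmn2). Falls numbered 0 by the test that the methods name. At unadjusted p under 0.05, that test gave 2 of the 11 member probe sets as higher and 1 as lower. Of all 14791 tested probe sets it gave 1870 as higher and 1772 as lower, and 18 passed after adjustment. Without 1 array, rises numbered 1 to 2 and falls 1, the count of 2 being without stressed replicate 1. Of the related genes 5 rose without an intensity trend, 0 rose and 0 fell by the test that the methods name, and across removals of an array 4 to 7 rose and 3 to 5 fell. No setting brought a member to 2-fold. Differences of small size changed sign. Tubb2a was at -0.0329 after quantile normalization and at -0.033 to 0.0859 without 1 array. The dimmer probe set of Nefl ranged from -0.0569 to 0.086 and Nefh from -0.0576 to 0.0314 without 1 array. The cause was not tested. A removal leaves 1 array in a group, which is then assumed to vary like the other group.

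The labels number the arrays 1 and 2 in each group but do not say that a number marks a shared batch. Deviations of same-numbered arrays correlated at -0.11 across tested probe sets. With the replicate block 1 member probe set rose and 1 fell, and 7 related genes rose and 4 fell. Quantile normalization and median centring left the median of all tested probe sets at 0.02.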
